A study of Bos taurus with 9 samples.

Results

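The 10 genes described here make cholesterol or control how much of it is made: HMGCS1, FDPS, FDFT1, SQLE, LSS, CYP51A1, MSMO1 and DHCR7 are enzymes of the pathway, and INSIG1 and SREBF2 are regulators. They were chosen by name, as every probe set for which the array's annotation gives one of these symbols alone. This gave 16 of the 24016 probe sets tested and 10 of the 9155 genes that the array names.

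Their expression was measured in stromal and epithelial cells of bovine endometrium (the lining of the uterus) grown together, at 3 stromal cells to 1 epithelial cell. The tissue came from 9 cows, all crosses of the Holstein and the Polish Black and White breeds, at days 2 to 5 of the oestrous cycle. Control cultures were given phosphate-buffered saline (PBS), a second group lysophosphatidic acid (LPA, a signalling lipid) at 1e-06 M, and another group the same LPA together with 1000 antiviral units of interferon tau (IFNt, the pregnancy signal of the ruminant embryo), with no volume stated. Each exposure lasted 6 h, and each group has 3 arrays, each from RNA of 3 cows pooled. With 9 cows in all, the pools must share cows, so p-values measure only the spread between these pools. Cultures given interferon tau alone were not analysed here, so every value for LPA+IFNt is one of both agents together.

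Animal cells build cholesterol from acetyl-CoA through mevalonate, farnesyl diphosphate, squalene and lanosterol. The genes of the pathway are switched on together by SREBP-2, the transcription factor that SREBF2 encodes. When sterols are low, the escort protein SCAP carries SREBP-2 from the endoplasmic reticulum to the Golgi, where proteases free its active part; when sterols are high, INSIG proteins hold SCAP back. In the uterus, cholesterol supplies cell membranes, and farnesyl diphosphate also feeds the lipid anchors of small GTPases.

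All values below are deposited log2 expression values, on which a difference of 1 is a doubling. A probe set was called when its p-value, adjusted by the Benjamini-Hochberg method over all 24016 probe sets, was under 0.05 in limma. Levels are not compared between genes, because probe sets differ in how brightly they bind. The array medians lay between 4.30 and 4.38. The interferon-stimulated genes followed the group labels: ISG15 lay between 7.89 and 7.97 on the control arrays, between 8.35 and 8.84 on the LPA arrays and between 14.42 and 14.63 on the LPA+IFNt arrays. All 14 epithelial and all 11 stromal marker genes measured had a mean above 2.80, the highest value of the array's trp controls, which match no bovine RNA. None of 8 endothelial and 5 of 12 leukocyte markers did.

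Of the 16 probe sets, 12 were brighter than the trp controls, at least 1 for each gene. The other 4, which are 1 of 3 for FDFT1, 2 of 3 for LSS and 1 of 2 for SREBF2, lay at or below that level on all 9 arrays and carry no measurable signal. HMGCS1 and FDFT1 each had a pair of probe sets above it, and FDPS, SQLE, CYP51A1, MSMO1, DHCR7 and INSIG1 had 1 each. Where a gene had several, the brightest stands for it.

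Cholesterol synthesis genes differed little between the groups. Among the 16 probe sets limma called 1: HMGCS1, lower under LPA+IFNt than in the control cultures. No probe set was called for LPA against control or for LPA+IFNt against LPA. In the test for any difference among the 3 groups DHCR7 was the only one called.

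The background differs between these comparisons and has to be read beside those counts. For LPA against control limma called 0.0708% of all probe sets at an adjusted p under 0.05, for LPA+IFNt against control 5.34%, for LPA+IFNt against LPA 6.54% and for any difference among the groups 5.99%. In the direction of the HMGCS1 call, 2.86% of all probe sets were called. A single call among 16 is near the shares of the comparisons it came from. At an unadjusted p under 0.05, 4, 4 and 3 of the 16 probe sets passed in the 3 comparisons, in the order just given, against 8.3%, 16.7% and 17.5% of all probe sets.

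**Figure D1:**
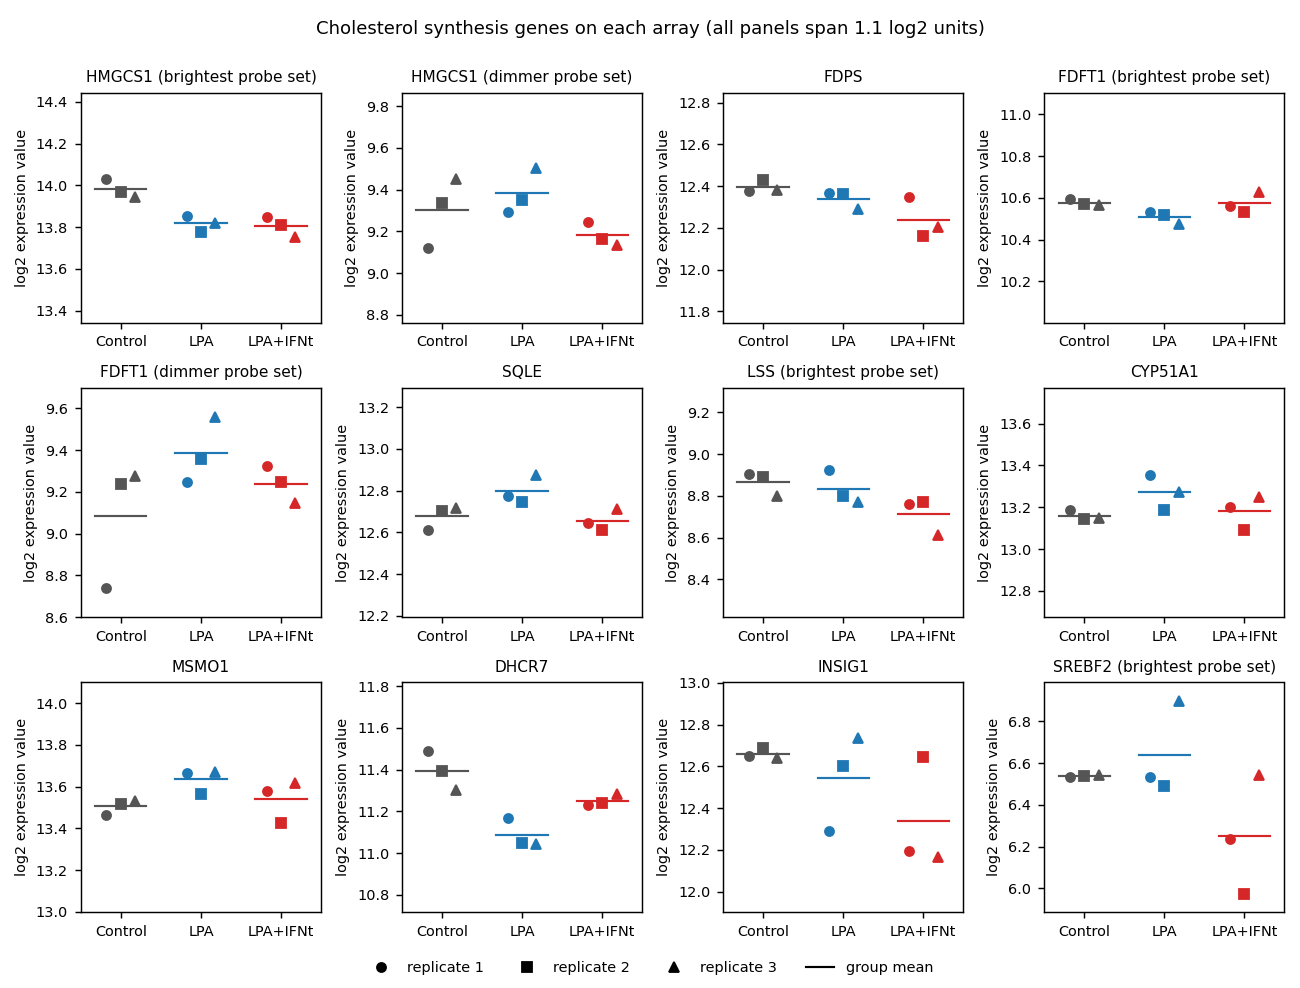
Log2 expression value (vertical axis, spanning 1.1 log2 units in every panel) of the 12 probe sets brighter than the trp controls, in the 3 groups. Points are single arrays, with the marker giving the replicate number, and lines are group means of 3 arrays; control lies above both treated groups on the brighter HMGCS1 probe set and all groups lie apart for DHCR7, while INSIG1 and SREBF2 show tight control arrays and wide treated groups.

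HMGCS1 condenses acetyl-CoA with acetoacetyl-CoA to HMG-CoA, early in the mevalonate stage. Its brighter probe set read 14.03, 13.97 and 13.95 on the control arrays, 13.85, 13.78 and 13.82 on the LPA arrays, and 13.85, 13.81 and 13.75 on the LPA+IFNt arrays. All 3 control arrays lay above all 6 treated arrays, and the treated groups overlapped. The group means were 13.98 ± 0.05, 13.82 ± 0.04 and 13.80 ± 0.05 (SD, n = 3 each).

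Under LPA+IFNt HMGCS1 fell by 0.18 on the log2 scale against control, with an SE of 0.04 and a 95% interval from -0.27 to -0.09, which is 1.13-fold lower (limma adjusted p = 0.0402). LPA alone against control gave a nearly equal difference of -0.16 (SE 0.04, interval -0.25 to -0.07), which was not called (limma adjusted p = 0.232). Both comparisons use the same control arrays, so the second is not independent of the first. LPA+IFNt against LPA gave -0.01, with an interval from -0.10 to 0.08. The call sits close to the threshold: over 15 other settings the adjusted p ran from 0.019 to 0.712, and it passed in 2 of them, the fit with replicate number as a block and the fit without LPA replicate 2. Leaving out any of the other 8 arrays ended the call.

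The dimmer HMGCS1 probe set did not repeat the order of the groups. It read 9.12, 9.34 and 9.45 in control, 9.29, 9.35 and 9.51 under LPA, and 9.24, 9.17 and 9.14 under LPA+IFNt. Control replicate 1 was the lowest of all 9 arrays here and the highest on the brighter probe set. Differences were 0.08 for LPA against control, -0.12 for LPA+IFNt against control and -0.20 for LPA+IFNt against LPA, with limma adjusted p of 1, 0.53 and 0.309. With both probe sets averaged, HMGCS1 under LPA+IFNt was -0.15 from control and no longer called (limma adjusted p = 0.124).

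Some markers of the stromal cells differed in the same comparison, LPA+IFNt against control. The mean log2 level over 11 stromal markers ran from 11.26 to 11.38 on the control arrays, from 11.39 to 11.59 under LPA and from 11.13 to 11.17 under LPA+IFNt, so the LPA+IFNt arrays were lowest. Of the 11 markers, 3 were called lower against control and none higher: COL3A1 fell by 0.51, COL1A1 by 0.39 and FBN1 by 0.39 (limma adjusted p of 0.00153, 0.034 and 0.00797). COL3A1 kept its call in all 14 other settings, COL1A1 lost it in 8 and FBN1 in 1. The uncalled PDGFRA, PDGFRB and POSTN were 0.06, 0.05 and 0.04 above control, and DCN was -0.04 from it. The median difference over the 11 was -0.145. Over 14 epithelial markers the mean ran from 9.91 to 10.06, from 9.95 to 10.03 and from 9.92 to 10.06 in the same order of groups, and only CDH1 was called against control (0.21 higher, limma adjusted p = 0.0112), a call lost in 2 of 14 other settings. Of 12 leukocyte markers only CD53 was called, 1.26 higher under LPA+IFNt than in control (limma adjusted p = 0.0252), a call lost in 6 of 14. CD53 was dim, with a mean of 3.20 over all arrays. CD14, with a mean of 6.96, was -0.74 from control (limma adjusted p = 0.11), and the median over the 12 was 0.04. The mean level over the 12 leukocyte markers ran from 3.22 to 3.30, from 3.32 to 3.52 and from 3.30 to 3.44.

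Some markers also differed between LPA+IFNt and LPA. Of the 11 stromal markers 5 were called lower: COL1A1, COL1A2, COL3A1, THY1 and FBN1. COL1A2 lost its call in 8 of 14 other settings, the replicate block among them, and FBN1 in 1, while the other calls held. Among 7 smooth muscle and pericyte markers ACTA2 was called, lower by a log2 difference of -1.05 (limma adjusted p = 0.00853), and the mean over the 7 ran from 6.00 to 6.24 in control, from 6.23 to 6.44 under LPA and from 5.83 to 5.99 under LPA+IFNt. SPINT2, an epithelial marker, was called at -0.45, and CD53 at 1.15 (limma adjusted p of 0.00457 and 0.0336). The CD53 call was lost in 8 of 14 other settings, and those of ACTA2 and SPINT2 in none. The part of the cell mixture in the results for HMGCS1, and in those against LPA given below, was not tested. In RNA from mixed cells, fewer cells of a type and less RNA per cell cannot be told apart.

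FDPS joins isoprene units into farnesyl diphosphate, where the pathway branches. It read 12.38, 12.43 and 12.38 in control, 12.37, 12.36 and 12.29 under LPA, and 12.35, 12.16 and 12.20 under LPA+IFNt. The control arrays were the highest 3, and replicates 2 and 3 of LPA+IFNt the lowest. LPA+IFNt differed from control by -0.16 (SE 0.05, interval -0.28 to -0.04), which was not called (limma adjusted p = 0.159). Without LPA+IFNt replicate 1, the highest of its group, the difference was -0.21 and was called (limma adjusted p = 0.0333), the only setting of 15 in which it was.

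FDFT1 joins a pair of farnesyl diphosphates into squalene, the first step committed to sterols. Its brightest probe set read 10.59, 10.57 and 10.57 in control, 10.53, 10.52 and 10.47 under LPA, and 10.56, 10.53 and 10.63 under LPA+IFNt. The LPA arrays lay below the control arrays by a small margin, -0.07 in the mean (interval -0.15 to 0.01, limma adjusted p = 0.667). LPA+IFNt was almost level with control at -0.0042, an interval from -0.08 to 0.07.

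The second FDFT1 probe set gave the opposite sign. It read 8.74, 9.24 and 9.27 in control, 9.24, 9.36 and 9.56 under LPA, and 9.32, 9.25 and 9.15 under LPA+IFNt. Control replicate 1 stood far below the other control arrays. LPA against control was 0.30 with a wide interval, from -0.04 to 0.65. Averaging all 3 FDFT1 probe sets, the unmeasurable one included, gave 0.08 for LPA against control, not called. No direction can therefore be given for this gene.

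SQLE adds oxygen to squalene and is a point of control in the pathway. It read 12.61, 12.70 and 12.72 in control, 12.78, 12.75 and 12.87 under LPA, and 12.64, 12.61 and 12.71 under LPA+IFNt. The 3 LPA arrays were above all 6 others, and control and LPA+IFNt overlapped. The difference was 0.12 for LPA against control (interval 0.01 to 0.23, limma adjusted p = 0.541) and -0.14 for LPA+IFNt against LPA (interval -0.25 to -0.03, limma adjusted p = 0.149). Neither passed over all probe sets.

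LSS closes the ring to lanosterol. Its measurable probe set read 8.91, 8.89 and 8.80 in control, 8.93, 8.80 and 8.77 under LPA, and 8.76, 8.77 and 8.61 under LPA+IFNt. All LPA+IFNt arrays lay below the other 6, the lowest being replicate 3. The margin from LPA was very small, with 8.771 for LPA+IFNt replicate 2 and 8.773 for LPA replicate 3. LPA+IFNt was -0.12 from LPA (limma adjusted p = 0.391). The difference from control was -0.15 (interval -0.29 to -0.01, limma adjusted p = 0.258, or 0.0646 with the replicate block).

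CYP51A1, a cytochrome P450, removes a methyl group from lanosterol. It read 13.18, 13.14 and 13.15 in control, 13.35, 13.18 and 13.27 under LPA, and 13.20, 13.09 and 13.25 under LPA+IFNt. The CYP51A1 groups overlapped in every comparison. MSMO1, an oxidase that acts on the next methyl groups, read 13.46, 13.52 and 13.53 in control, 13.67, 13.57 and 13.67 under LPA, and 13.58, 13.43 and 13.62 under LPA+IFNt. For MSMO1 the LPA arrays lay above the control arrays. In both genes LPA replicate 2 was the lowest of the LPA arrays and LPA+IFNt replicate 2 the lowest of all 9. LPA against control gave 0.11 for CYP51A1 (interval -0.02 to 0.24) and 0.13 for MSMO1 (interval 0.00053 to 0.26), with limma adjusted p of 0.678 and 0.600. LPA+IFNt against control gave 0.02 and 0.04.

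DHCR7 reduces the dehydro precursor to cholesterol, and the same precursor is the source of vitamin D in skin. It read 11.49, 11.39 and 11.30 in control, 11.17, 11.05 and 11.05 under LPA, and 11.23, 11.24 and 11.28 under LPA+IFNt. The 3 groups did not overlap at all: control was highest, LPA lowest and LPA+IFNt between them. The means were 11.39 ± 0.09, 11.09 ± 0.07 and 11.25 ± 0.03 (SD, n = 3 each).

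For DHCR7 limma's F test of any difference among the groups passed (adjusted p = 0.040, and 0.0403 with the replicate block), while no single pair did. LPA was -0.31 from control (SE 0.06, interval -0.44 to -0.18, 1.24-fold lower, limma adjusted p = 0.12). Before adjustment its limma p was 0.000668, smaller than the 0.00196 of the called HMGCS1 difference for LPA+IFNt against control. Each comparison was adjusted by itself, so being called does not rank these differences. LPA+IFNt was -0.14 from control (interval -0.27 to -0.01, limma adjusted p = 0.243) and 0.16 above LPA (interval 0.04 to 0.29, limma adjusted p = 0.161). The F test passed in 5 of 13 other settings, with limma adjusted p from 0.0307 to 0.178. It also passed with probe sets averaged, a setting that the 13 leave out. It was lost without Control replicate 1 or 2, LPA replicate 2 or 3 or any LPA+IFNt array, and with spike-in centring.

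INSIG1 is both a brake on SREBP-2 and one of its targets. It read 12.65, 12.69 and 12.64 in control, 12.29, 12.60 and 12.74 under LPA, and 12.19, 12.65 and 12.17 under LPA+IFNt. The control arrays lay close together, whereas LPA replicate 1 and LPA+IFNt replicates 1 and 3 stood well below and the other 3 treated arrays did not. The SDs were 0.03, 0.23 and 0.27. LPA+IFNt was -0.32 from control, but the interval ran from -0.67 to 0.03 (limma adjusted p = 0.342).

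SREBF2, the gene of the transcription factor itself, read 6.53, 6.54 and 6.55 in control, 6.53, 6.49 and 6.90 under LPA, and 6.24, 5.97 and 6.54 under LPA+IFNt. Replicate 3 was the highest array in each treated group, and replicate 3 of LPA+IFNt was level with the control arrays. LPA+IFNt was -0.29 from control (interval -0.65 to 0.07, limma adjusted p = 0.412) and -0.39 from LPA (interval -0.75 to -0.03, limma adjusted p = 0.237, or 0.0925 with the replicate block). The regulators therefore had the widest intervals of the 10 genes, and their data allow a SREBF2 level up to 1.56-fold lower or 1.05-fold higher under LPA+IFNt than in control.

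**Figure D2:**
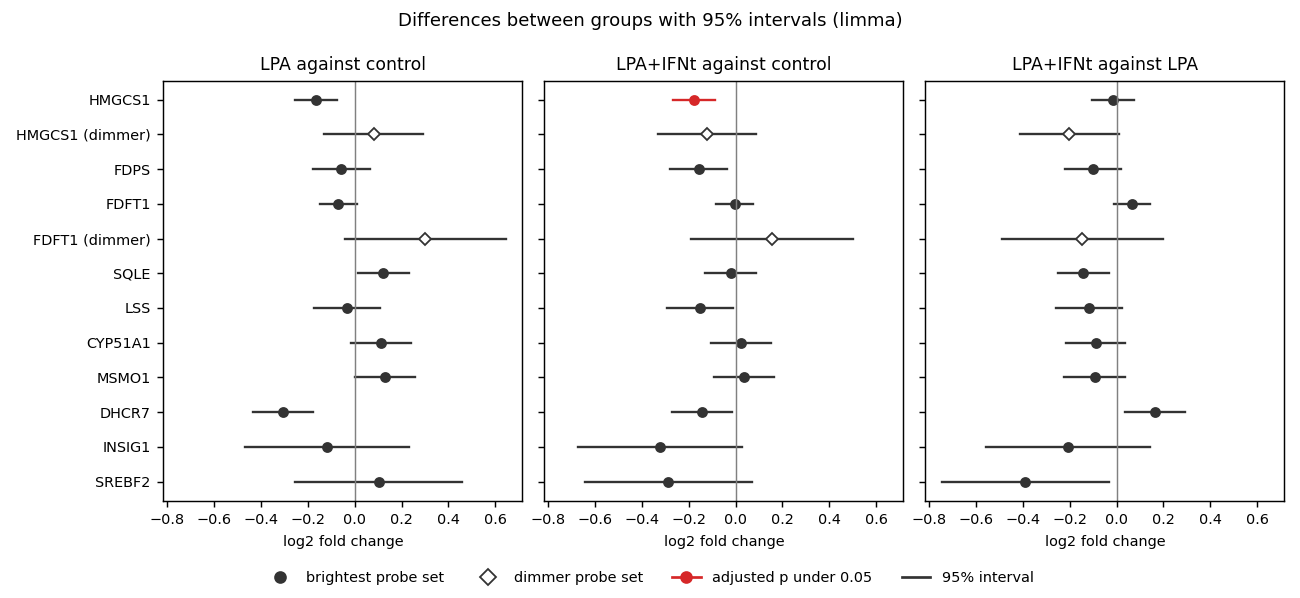
Difference in log2 expression (horizontal axis, log2 fold change) of each of the 12 probe sets, in the 3 comparisons named above the panels. Points are limma estimates from 9 arrays, diamonds are the dimmer probe sets of HMGCS1 and FDFT1, lines are 95% intervals, and red marks an adjusted p under 0.05, reached by HMGCS1 at -0.18 for LPA+IFNt against control.

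Across the 10 genes the differences were small in every comparison. For LPA against control 6 were negative and 4 positive, from -0.31 to 0.13, with a median of -0.04, beside a median of -0.0032 over the 15053 probe sets with a mean above the trp controls. For LPA+IFNt against control 8 were negative and 2 positive, from -0.32 to 0.04, with a median of -0.15, beside -0.04. LPA+IFNt against LPA also gave 8 negative and 2 positive, from -0.39 to 0.16, with a median of -0.10, beside -0.02. Among all probe sets above the trp controls 51.4%, 58.4% and 55% were negative in the 3 comparisons, in that order. The comparisons share arrays, so those with LPA+IFNt are not separate evidence of a direction. FDFT1 is counted here by its brightest probe set. Among genes whose measurable probe sets all had one sign, 4 of 8 were negative for LPA against control, which leaves out FDFT1 and HMGCS1. For LPA+IFNt 7 of 9 were negative against control and 8 of 9 against LPA, which leaves out FDFT1. Leaving out single arrays moved the count of negative genes for LPA+IFNt against control between 6 and 10.

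Of the 16 probe sets, 7 had non-overlapping arrays for LPA against control, 4 lower and 3 higher, where 10% of all probe sets did, 4.91% lower and 5.13% higher. For LPA+IFNt against control 4 did, all lower (HMGCS1, FDPS, LSS and DHCR7), where 23.1% of all probe sets did, 12.8% lower and 10.2% higher. For LPA+IFNt against LPA 4 did, 3 lower and 1 higher, where 18.7% did, 11.3% lower and 7.35% higher. Among probe sets above the trp controls those shares were 14.6%, 30.8% and 27.4%, and 6, 4 and 4 of the 12 members above them did. Counted in either direction, those with LPA+IFNt are near the background, and that for LPA against control is above it while holding both directions. Counted as lower only, the 4 and 3 of 16 with LPA+IFNt are above the 12.8% and 11.3%, shares that include dim probe sets. No test of these counts was made.

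The 95% intervals give the range that each estimate allows. Each interval covers its own probe set alone, not all 12 at once, so a larger change in some of them is not excluded. Over the 12 measurable probe sets, no interval allowed a level more than 1.60-fold lower or 1.41-fold higher under LPA+IFNt than in control. Under LPA against control the bounds were 1.38-fold lower and 1.57-fold higher, and under LPA+IFNt against LPA 1.68-fold lower and 1.23-fold higher. INSIG1 and SREBF2 set the lower bounds. The second FDFT1 probe set gave both upper bounds against control, which with the brightest probe set of each gene alone were 1.12-fold under LPA+IFNt and 1.37-fold under LPA.

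**Figure D3:**
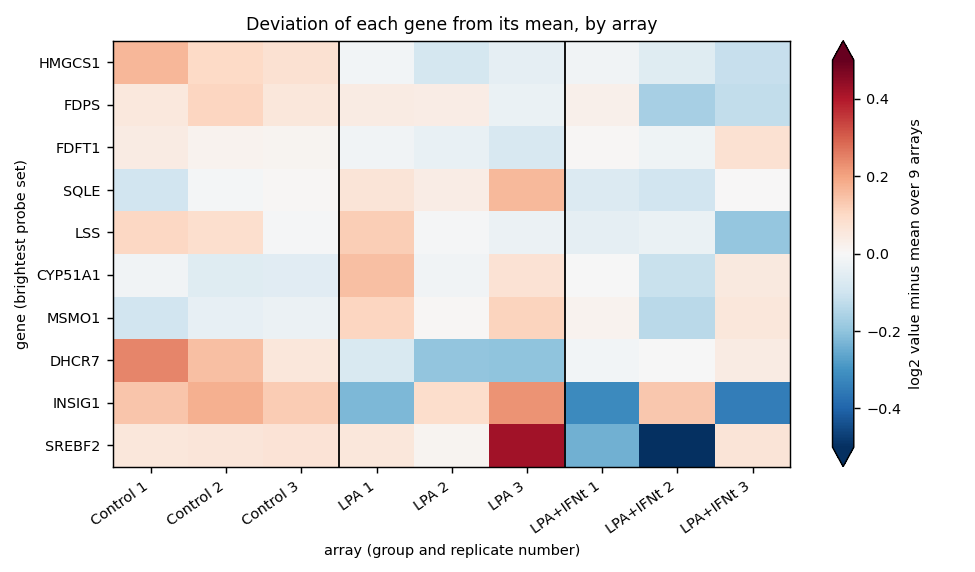
Deviation of each gene's brightest probe set (rows) from its own mean over 9 arrays (columns, by group and replicate number), in log2 units on a colour scale from -0.5 to 0.5, with arrows on the scale for values beyond it. HMGCS1 and DHCR7 are above their mean on all 3 control arrays, INSIG1 and SREBF2 vary most between arrays, and LPA+IFNt replicate 2 is the lowest array for FDPS, SQLE, CYP51A1, MSMO1 and SREBF2.

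Arrays differed in ways that the groups do not explain. LPA replicate 3 was the highest of 9 for SQLE, MSMO1, INSIG1 and SREBF2 and the lowest for FDFT1 and DHCR7. LPA+IFNt replicate 2 was the lowest for FDPS, SQLE, CYP51A1, MSMO1 and SREBF2, and replicate 3 of that group the lowest for HMGCS1, LSS and INSIG1. The mean deviation over the 10 genes was 0.06, 0.06 and 0.03 on the control arrays, 0.02, -0.02 and 0.06 on the LPA arrays, and -0.07, -0.10 and -0.05 on the LPA+IFNt arrays. The LPA+IFNt arrays were thus the lowest 3, and control and LPA overlapped.

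The named genes whose profiles over the 9 arrays were most like that mean were LPCAT3, with a Pearson correlation of 0.977, RPL15P with 0.962, PRUNE2 with 0.958, ASF1A with 0.956, CDKN1C with 0.954 and RARS2 with 0.953. These are the top 6 genes over 8345 probe sets compared, a description with no test, and high values are reached by selection among so many. Of the 6, LPCAT3, a phospholipid acyltransferase, was on the list of SREBP processing and control, and the match was by the dimmer of its 2 probe sets.

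Other genes of cholesterol and related lipid metabolism were taken from 7 lists, with 54 of their 75 genes measured. No gene of the 54 was called for LPA against control. For LPA+IFNt against control 4 were called, 2 higher and 2 lower (7.41% of 54, beside the 5.34% above), and the median difference was -0.08. For LPA+IFNt against LPA 5 were called, 2 higher and 3 lower (9.26%, beside 6.54%), with a median of -0.05. With the replicate block the latter count was 9, of which 2 higher and 7 lower, where 9.66% of all probe sets were called. The block added TM7SF2, EBP, FAF2 and SOAT1. The background shares here include dim probe sets, whereas the 54 genes are given by their brightest probe sets. With dim probe sets left out, limma called 1437 of 15053 for LPA+IFNt against control and 1719 for LPA+IFNt against LPA, which are larger shares.

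**Figure D4:**
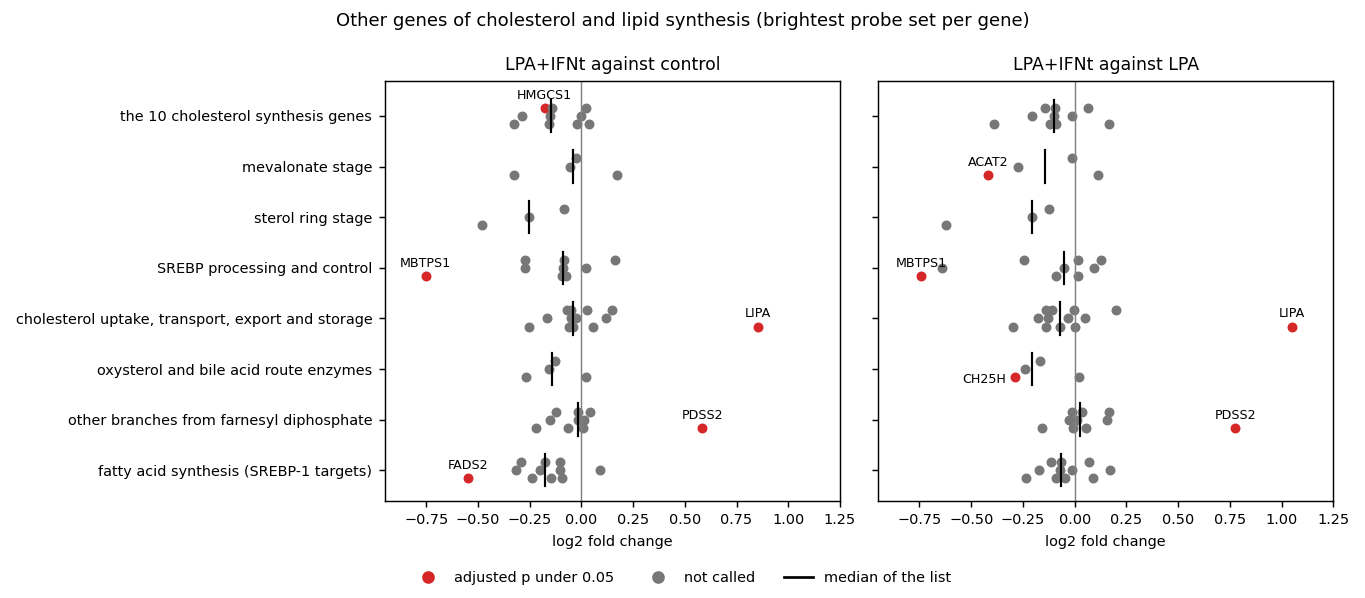
Log2 fold change (horizontal axis) of the 10 cholesterol synthesis genes and of the 54 genes of 7 related lists (rows), for LPA+IFNt against control and against LPA. Points are genes by their brightest probe set, red where limma's adjusted p was under 0.05, and vertical bars are list medians; most points lie near 0, with MBTPS1 lower and LIPA and PDSS2 higher in both panels.

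Among genes that process SREBPs, MBTPS1, which encodes the site-1 protease that makes the first cut in the Golgi, was called in both comparisons. It read 11.18, 11.02 and 11.00 in control, 11.13, 10.94 and 11.10 under LPA, and 10.33, 10.30 and 10.31 under LPA+IFNt. The LPA+IFNt arrays lay close together and far below the other 6. MBTPS1 fell by 0.75 against control (SE 0.06, 1.68-fold lower, limma adjusted p = 0.000444) and by 0.74 against LPA (limma adjusted p = 0.000488), and passed in all 14 other settings for each. It has a single probe set.

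By their brightest probe sets the other 8 measured genes of that list were not called. LPCAT3 was called on its dimmer probe set alone, for LPA+IFNt against control and against LPA, as given at the end. With the replicate block FAF2, which acts in the degradation of proteins of the endoplasmic reticulum, passed for LPA+IFNt against LPA at -0.64 (limma adjusted p = 0.0373, and 0.0528 without the block). SREBF1, which encodes the related factor of fatty acid synthesis, was -0.03 under LPA and -0.08 under LPA+IFNt from control. INSIG2, the second INSIG gene, was 0.07 and 0.16. None of the 4 probe sets for SCAP had a mean above the trp controls, so SCAP was not measurable. The list's median was -0.09 for LPA+IFNt against control and -0.05 against LPA.

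In the mevalonate stage 4 of 7 listed genes were measured. ACAT2, which makes the acetoacetyl-CoA that HMGCS1 uses, read 10.71, 10.75 and 10.89 in control, 11.21, 11.10 and 11.22 under LPA, and 10.81, 10.55 and 10.92 under LPA+IFNt. The LPA arrays were above all others, as for SQLE. Under LPA+IFNt ACAT2 fell by 0.42 against LPA (SE 0.09, limma adjusted p = 0.0438), a call lost in 10 of 14 other settings, among them without any single array but LPA+IFNt replicate 3. It was 0.39 above control under LPA (limma adjusted p = 0.255). MVK, PMVK and MVD, which carry mevalonate on to isopentenyl diphosphate, were not called.

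In the sterol ring stage 3 of 8 listed genes were measured and none was called. TM7SF2, a sterol reductase, was -0.48 from control and -0.62 from LPA under LPA+IFNt (limma adjusted p of 0.196 and 0.0864, and 0.0945 and 0.0442 with the replicate block). EBP, the sterol isomerase, was -0.25 from control and -0.21 from LPA (limma adjusted p of 0.122 and 0.194, and 0.015 and 0.0256 with the replicate block). All 3 genes, NSDHL included, had negative differences in both comparisons, with list medians of -0.25 and -0.21.

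Among 13 measured genes of cholesterol uptake, transport, export and storage 1 was called. LIPA, the lysosomal lipase that frees cholesterol from the esters of lipoproteins taken up, read 7.49, 7.87 and 7.64 in control, 7.49, 7.68 and 7.23 under LPA, and 8.59, 8.52 and 8.43 under LPA+IFNt. All LPA+IFNt arrays were above all others. LIPA rose by 0.85 against control (SE 0.13, 1.80-fold, limma adjusted p = 0.00959) and by 1.05 against LPA (limma adjusted p = 0.00337), and passed in all 14 other settings for each. SOAT1, which esterifies cholesterol for storage, was -0.14 from LPA under LPA+IFNt and passed with the replicate block (limma adjusted p = 0.0419, and 0.134 without it). FAF2 and SOAT1 were named after their values were seen. The list's medians were -0.04 and -0.07.

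Of 10 measured genes on other branches from farnesyl diphosphate, PDSS2, a subunit of the enzyme that makes the side chain of ubiquinone, was called. It read 6.76, 6.70 and 6.69 in control, 6.71, 6.42 and 6.45 under LPA, and 7.28, 7.20 and 7.43 under LPA+IFNt. The LPA+IFNt arrays were above all 6 others. PDSS2 rose by 0.58 against control (SE 0.09, limma adjusted p = 0.00819) and by 0.78 against LPA (limma adjusted p = 0.00189), and passed in all 14 other settings. Its partner PDSS1 was -0.22 and 0.16, not called, and the list's medians were -0.01 and 0.02.

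By their brightest probe sets, FADS2, a fatty acid desaturase, was the 1 called gene of 11 measured in fatty acid synthesis. It read 10.69, 10.47 and 10.42 in control, 10.36, 10.01 and 10.25 under LPA, and 10.04, 9.94 and 9.95 under LPA+IFNt. Control was above all treated arrays. FADS2 fell by 0.55 under LPA+IFNt against control (SE 0.10, limma adjusted p = 0.0216), a call lost without Control replicate 1 or 2 or any single LPA+IFNt array, with limma adjusted p from 0.0531 to 0.0769. LPA alone was -0.31 from control (limma adjusted p = 0.444). The list's median was -0.18 for LPA+IFNt against control.

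CH25H, which makes an oxysterol that blocks SREBP processing and is known as an interferon target in other cells, was dim. It read 3.57, 3.65 and 3.61 in control, 3.80, 3.89 and 3.62 under LPA, and 3.46, 3.52 and 3.47 under LPA+IFNt. It fell by 0.29 under LPA+IFNt against LPA (SE 0.07, limma adjusted p = 0.044), a call lost in 11 of 14 other settings, among them without any single array but LPA replicate 3. It was -0.13 from control (limma adjusted p = 0.393). Its second probe set, under the trp controls, gave 0.01. The other 3 measured oxysterol and bile acid route enzymes were not called.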

How the data were processed

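The values were the log2 expression values deposited by the authors, for 9 Affymetrix bovine arrays. The submitters' processing notes name Partek and RMA, with no version; the log base was read as 2 because the values run from 0.71 to 15.66. RMA equalises the arrays' distributions, so a shift of most transcripts would be hidden. Precision is limited by the number of arrays.

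Of 24128 probe sets, 112 Affymetrix controls were left out. Names came from the array's annotation: 13292 probe sets had 1 symbol, 86 several and 10638 none, and 13263 matched the RefSeq table of ARS-UCD2.0 by gene identifier, which changed 0 symbols.

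Groups were compared with limma 3.58.1 in R 4.3.3 (lmFit, contrasts.fit and eBayes, two-sided) on all 9 arrays, with no covariate or filter, Benjamini-Hochberg adjustment over 24016 probe sets and a threshold of 0.05. The script was tested on simulated data.

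The labels number the replicates but do not say whether equal numbers mark the same cows. SEs, intervals and p-values are of the fit without a block unless stated. All 9 same-numbered pairs of different groups deviated together (correlations from 0.19 to 0.49), against -0.47 to 0.14 for 18 other pairs. A replicate block was therefore tried, as were leaving out each array, leaving out dim probe sets, centring on 18 spike-in probe sets, a variance trend, averaging the probe sets of a gene and fitting the compared groups alone.

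Genes named beside the 10 were those of each list called by their brightest probe set, or the 2 with the smallest p of the F test where none was, and some always given. The members, lists and tests were chosen with earlier results of these data known. No sequences or coordinates are given. No genome, promoter or probe sequences were at hand, so a planned count of promoter motifs was not made.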

Additional observations from a re-analysis of the deposited data

How the results depend on the processing

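No called difference changed sign under any alternative; the sign of an uncalled difference was not counted as a reversal. Of the results for the 10 genes under the alternatives, 693 kept their side of the threshold within the spread, 21 were no longer called, 2 became called and 13 moved by over 1 residual SD. Most of the 693 were uncalled results that stayed uncalled, so the count does not show that the calls were stable. HMGCS1 kept its call for LPA+IFNt against control in 2 of 15 other settings. DHCR7 kept its F test call in 5 of 13, and also with probe sets averaged, which the 13 leave out. The HMGCS1 call for LPA+IFNt against control was the 1 member probe set called and became 0 with dim probe sets left out, spike-in centring, a variance trend, probe sets averaged or 2 groups only, and 0 to 1 when single arrays were left out. For any difference among the groups 1 member was called, 2 with the replicate block (DHCR7 and HMGCS1, the latter with limma adjusted p = 0.0265), 0 with spike-in centring and 0 to 1 when single arrays were left out. Spike-in centring moved the median of all probe sets by under 0.1, and 6 of 10 genes were then negative for LPA+IFNt against control.

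Over the whole array, LPA against control gave 17 calls, and 11 with the replicate block, 37 without dim probe sets, 49 with spike-in centring, 36 with a variance trend, 28 with probe sets averaged, 1 with 2 groups only and 0 to 169 without single arrays: 0 without Control replicate 2 or LPA replicate 1, where limma gave 1520 and 1739 probe sets an unadjusted p under 0.05; the 169 arose without LPA replicate 2. LPA+IFNt against control gave 1282, 2085 with the replicate block and 791 to 1352 without single arrays, the lowest without Control replicate 2. LPA+IFNt against LPA gave 1571, 1004 with 2 groups only and 954 to 2204 without single arrays, the lowest without LPA replicate 1. Any difference gave 1439, 2276 with the replicate block and 911 to 1997 without single arrays. Spike-in centring changed the split of higher and lower calls from 12 and 5 to 23 and 26 for LPA against control, from 595 and 687 to 630 and 481 for LPA+IFNt against control, and from 614 and 957 to 615 and 690 for LPA+IFNt against LPA. The cause was not tested.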

Other observations

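Probe sets of 2 related genes disagreed in their calls, and both were chosen here after their values were seen. LPCAT3, a phospholipid acyltransferase, fell by 0.49 under LPA+IFNt against control on its dimmer probe set (limma adjusted p = 0.00471), while its brighter one gave -0.27 (limma adjusted p = 0.319). The brighter one was -0.40 under LPA alone, and the dimmer one -0.11, neither called. For LPA+IFNt against LPA the dimmer LPCAT3 probe set fell by 0.37 (limma adjusted p = 0.0147), whereas the brighter one gave 0.13 (limma adjusted p = 0.64). ME1, the cytosolic malic enzyme that supplies NADPH for lipid synthesis, fell by 0.32 under LPA+IFNt against control on its dimmer probe set (limma adjusted p = 0.0259), and its brighter one gave -0.24 (limma adjusted p = 0.0897).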
